A study of Mus musculus with 6 samples.

Results

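Once the poly(A) tail of an mRNA has been shortened, the rest of the molecule is destroyed by a second set of proteins. Genes of this set and of linked decay pathways, 43 in all, are described here in mouse islets. These include the scaffold of a complex that shortens tails. They were taken as the rows whose gene symbol was on a list of subunits of the exosome, the decapping complex, the LSm ring, the nonsense-mediated decay and Ski machineries and the CCR4-NOT scaffold. All 43 listed symbols were found among the 55060 genes deposited. Each had 1 row.

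The samples were isolated islets of mice aged 12 weeks, 3 samples labelled Ctrl and 3 labelled cKO. The cKO mice were *Ins2-cre; Parn f/f*: Cre driven by the *Ins2* promoter removes exon 7 of *Parn*, which is flanked by loxP sites, from insulin-producing β cells. *Parn* encodes a poly(A) ribonuclease that trims the tail. The Ctrl mice were *Parn f/f* and other littermates, and the sources do not say which of these 6 samples carried Cre, the sex of the mice or whether a sample was 1 animal or a pool. Whole islets also hold α, δ, vascular and other cells that keep *Parn*. Since nothing in the labels says that the samples came from separate animals, the p-values measure the spread between these samples only.

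An mRNA that has lost its tail can be degraded from either end. From the cap end, the LSm ring and PATL1 bind the shortened tail, DCP2 and its partners remove the cap, and XRN1 digests the body. From the tail end, the exosome, fed by the Ski complex in the cytoplasm, digests in the opposite direction. Nonsense-mediated decay brings transcripts with a premature stop to the same enzymes, and Pelota and HBS1L free ribosomes that are stuck on a message, while the CCR4-NOT scaffold holds the deadenylases that start the process.

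Expression was given as FPKM, a count of fragments scaled to gene length and library size. The reads on genes, read back from the FPKM, numbered 16289408 to 17944775 a sample. The library size by which the deposited values had been divided, 15731223 to 18085944, was smaller than the sample's reads on genes in all 3 Ctrl and larger in all 3 cKO samples, so it is a scaled size and not a number of reads. *Ins2* alone took 20.2% to 22.7% of the reads on genes in Ctrl and 14.7% to 17.6% in cKO. Ctrl replicate 1 stood apart: the FPKM of 6 leukocyte markers summed to 912 there and to 148 to 245 in the other 5 samples, and 4 proliferation markers summed to 10.2 against 1.35 to 2.86. The 10 β-cell markers summed to 235964 to 276386 in Ctrl and to 195405 to 217645 in cKO. Without *Ins2* the other 9 summed to 81087 to 98288 and 81058 to 86375, with overlap. That sum is mostly *Ins1* (61862 to 74399 over all samples) and hides differences between the markers. *Iapp* lay wholly below Ctrl in cKO (17011 to 23853 against 13486 to 14450). *G6pc2* lay wholly above (992 to 1266 against 1428 to 1476). *Ins1*, *Mafa*, *Pdx1*, *Nkx6-1*, *Slc2a2*, *Ucn3* and *Slc30a8* overlapped. In Ctrl and in cKO, the sums were 84.7 to 99.1 and 109 to 139 for the 4 endothelial markers. For the 8 acinar markers they were 6804 to 18554 and 8405 to 30918. Most of the endothelial sum is *Plvap* (57.7 to 72.4 and 80.6 to 101). *Cdh5* also lay wholly above Ctrl in cKO, and *Pecam1* and *Kdr* overlapped. None of the 51 markers of 10 cell types was at 0 in every sample. The part of these differences in any result below was not tested.

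*Parn* (ENSMUSG00000022685) had FPKM of 6.64, 8.34 and 7.38 in Ctrl against 4.97, 4.61 and 6.15 in cKO. Every cKO sample was lower than every Ctrl sample, and reads on the gene were present in all 3 cKO samples. The log2 fold change was -0.44 (SE 0.131), with an adjusted p of 0.545 (limma, Benjamini-Hochberg). In bulk islets, fewer cells of a type and less RNA per cell cannot be told apart.

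For the comparison of cKO with Ctrl, limma was run two-sided on log2(FPKM + 1) over the 21211 genes whose mean FPKM reached 0.1. On this scale the fold change of a gene with low FPKM is understated. No gene reached an adjusted p under 0.05, which is 0% of those tested, and the smallest adjusted p was 0.274 (limma, Benjamini-Hochberg). An unadjusted p under 0.05 was reached by 1570 genes in this fit and by 1579 with limma's voom on the reads, where again 0 passed the adjustment. Below, "past the unadjusted threshold" therefore marks a member for description and does not mean that it passed the test.

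The transcripts of the decay machinery were present at similar levels in both genotypes. All 43 members passed the filter on low values, with 39 to 4884 reads a sample. Their median log2 fold change was 0.01, against -0.01 over all genes tested, and 24 had a positive and 19 a negative value. The changes ranged from -0.57 for *Lsm5* to 0.32 for *Lsm6*. Of the members, 40 (93.0%) were within 0.25 in either direction, against 76.9% of all genes tested and 80.2% of those with a mean FPKM in the members' range. For 39 members (90.7%) the 95% interval of the log2 fold change on log2(FPKM + 1) lay within 0.58 in either direction, against 71.9% of the 10528 genes whose mean FPKM was in the same range. The 4 exceptions were *Exosc3*, *Lsm3*, *Lsm5* and *Upf1*. For a gene with low FPKM that bound allows a larger ratio of the FPKM values themselves.

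Of the members, 1 (2.33%) was past the unadjusted threshold with higher values in cKO, against 4.33% of all genes tested, and 2 (4.65%) were past it with lower values, against 3.07%. The first was *Lsm6*, and the others were *Lsm3* and *Upf3b*. Without Ctrl replicate 1, the sample rich in leukocyte RNA, 2 were higher (*Lsm6* and *Ttc37*) and 1 lower (*Upf3b*), against 5.87% and 5.45% of all genes in that fit. In 4 members (9.30%) every cKO sample lay above every Ctrl sample, against 7.11% of all genes tested, and in 5 (11.6%) every cKO sample lay below, against 6.03%. The first group was *Dis3l*, *Xrn1*, *Lsm6* and *Smg6*, the second *Dcp1b*, *Lsm3*, *Lsm5*, *Upf3b* and *Smg5*. With 3 samples against 3, such a separation has an exact two-sided permutation p of 0.1, the smallest that the design allows. The counts by role below come from 3 to 8 genes each. They stand beside the same shares of all genes tested, 4.33% higher and 3.07% lower, and are no result about a role.

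**Figure D1:**
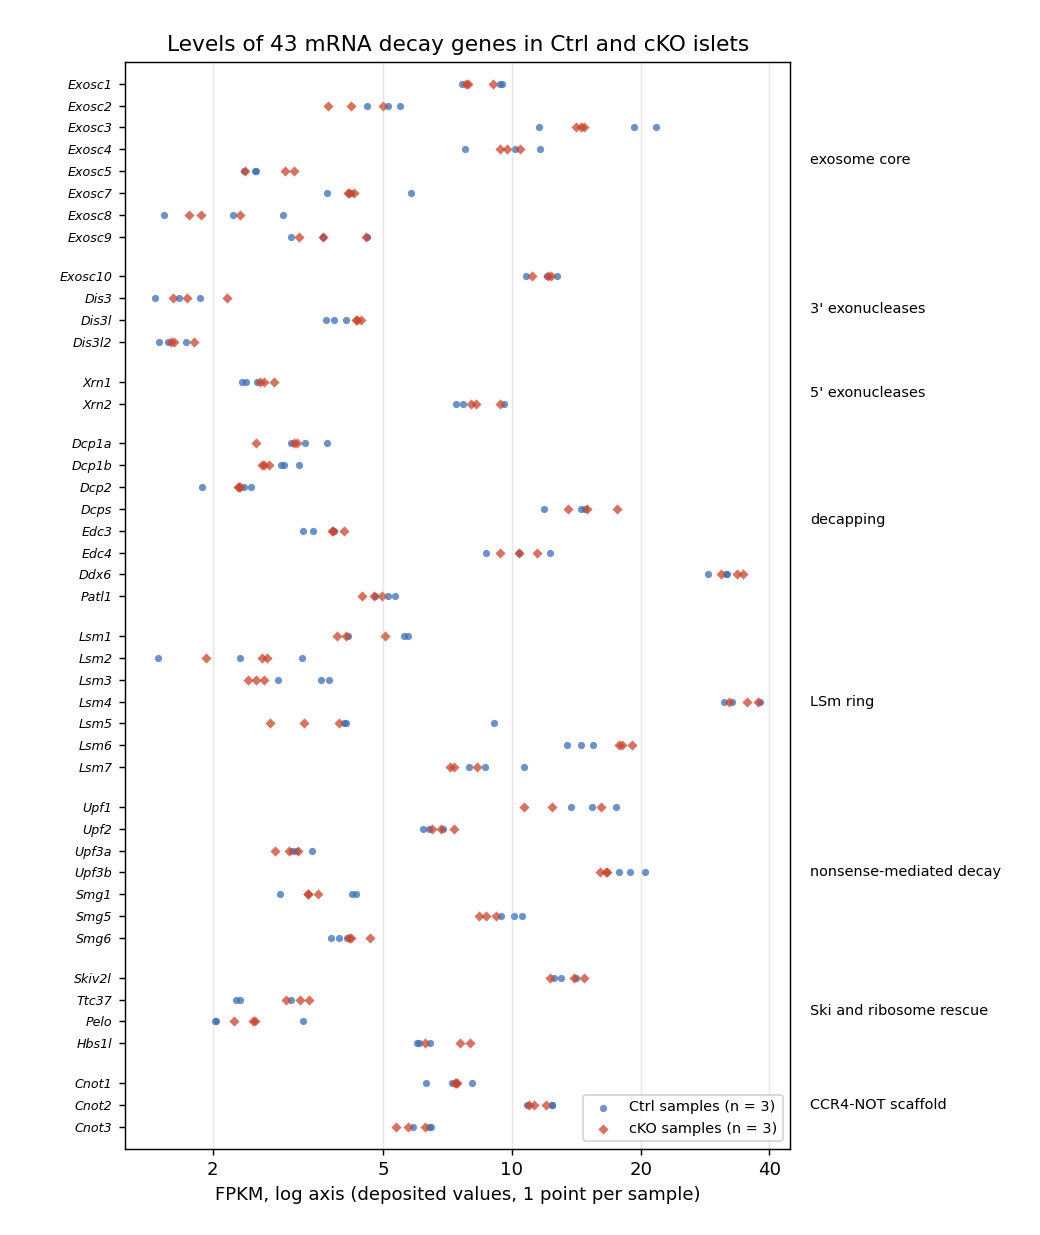
Level of each of the 43 members in FPKM (log axis), 1 point per sample, in 3 Ctrl (circles) and 3 cKO (diamonds) samples, grouped by role. The genotypes overlap in most rows, and *Lsm6* shows cKO samples between 17.8 and 19.1 beside Ctrl samples between 13.4 and 15.5.

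**Figure D2:**
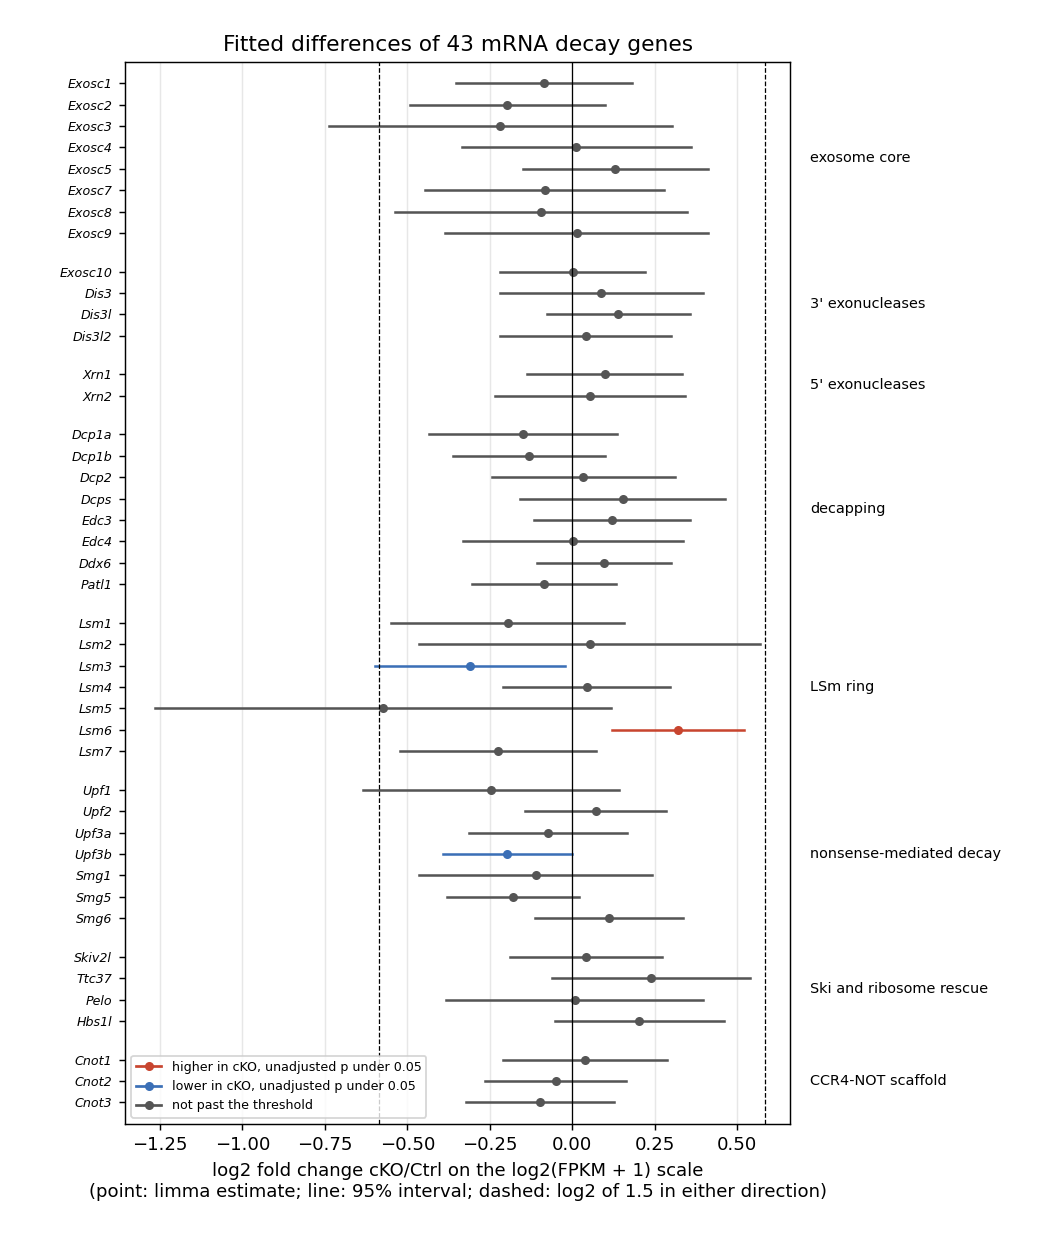
Log2 fold change of each member on the log2(FPKM + 1) scale (point) with its 95% interval from limma (line), with dashed lines at 0.58 in either direction. Most points lie near 0, *Lsm6* stands to the right, and *Lsm5* has the widest interval, from -1.26 to 0.12.

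The largest fitted changes in both directions belonged to the LSm ring, a ring of 7 small proteins that binds the end of a shortened tail and promotes decapping. The upstream sequences of the 3 genes concerned, and that of *Upf3b*, the remaining member past the unadjusted threshold, are shown so that their starts can be compared. They come from the RefSeq promoter table for GRCm38.p6 and are printed 5′ to 3′ on the strand of the gene, up to the base before the first start annotated in RefSeq or GENCODE. The Lsm3 stretch has 143 bases (chr6:91515785-91515927, plus strand), the Lsm5 stretch 239 (chr6:56704711-56704949, minus strand), the Lsm6 stretch 250 (chr8:78821153-78821402, minus strand) and the Upf3b stretch 250 (chrX:37110323-37110572, minus strand). Capitals mark complete matches, on either strand, to the GC box GGGCGG, the ETS core CGGAAG, the YY1 core ATGGCG or the CCAAT box.
Lsm3: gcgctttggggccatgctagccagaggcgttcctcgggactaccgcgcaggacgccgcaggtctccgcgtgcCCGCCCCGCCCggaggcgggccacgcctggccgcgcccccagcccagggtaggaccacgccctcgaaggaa
Lsm5: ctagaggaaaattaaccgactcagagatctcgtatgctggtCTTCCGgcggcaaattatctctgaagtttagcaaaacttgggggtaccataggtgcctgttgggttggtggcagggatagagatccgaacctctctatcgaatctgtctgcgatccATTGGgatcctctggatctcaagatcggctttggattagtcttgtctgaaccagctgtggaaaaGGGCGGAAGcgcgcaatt
Lsm6: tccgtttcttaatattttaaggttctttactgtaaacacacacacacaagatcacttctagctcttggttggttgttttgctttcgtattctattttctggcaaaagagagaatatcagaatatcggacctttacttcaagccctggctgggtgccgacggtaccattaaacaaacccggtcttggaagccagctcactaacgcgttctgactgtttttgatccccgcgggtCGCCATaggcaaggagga
Upf3b: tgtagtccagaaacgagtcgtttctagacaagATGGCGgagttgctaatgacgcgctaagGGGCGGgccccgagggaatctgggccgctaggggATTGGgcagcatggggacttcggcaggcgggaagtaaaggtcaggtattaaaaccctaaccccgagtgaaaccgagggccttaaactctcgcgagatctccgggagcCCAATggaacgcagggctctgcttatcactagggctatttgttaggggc
Within the printed bases, which stop before the first start, the 4 stretches did not share 1 pattern. Lsm3 held 2 overlapping GC boxes there, and Lsm5 a CCAAT box, 2 ETS cores and a GC box that overlaps the second ETS core. Lsm6 held a YY1 core alone, and Upf3b 2 CCAAT boxes, a GC box and a YY1 core. This contrast depends on where the stretches were cut. The full windows of 300 bases, which run past the start, held a GC box and a YY1 core in all 4 genes. Counted from the start, the YY1 core lay at position 23 in Lsm3 and 31 in Lsm5. Lsm6 had its GC box at 34 and a CCAAT box at 5.

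For 35 of the 43 members the RefSeq table held at least 1 window of 300 bases, from 250 before to 50 after the start, and 40 windows in all. *Exosc4*, *Exosc9*, *Dcp2*, *Ddx6*, *Lsm1*, *Lsm4*, *Skiv2l* and *Cnot1* had no entry. The members' windows were richer in GC and CpG than the 32851 windows of all genes, with a median of 64% against 52.7% GC and of 25 against 7 CpG dinucleotides. GGGCGG occurred in 75% of the members' windows and 35.7% of all windows, CGGAAG in 40% and 16.9%, ATGGCG in 35% and 8.93%, and TGCGCA (NRF1 core) in 30% and 7.76%. CCAAT occurred in 37.5% and 37.4%, and TATAAA in 0% of the members' windows and 13.6% of all windows. Several windows belong to 1 gene, GC-rich motifs are more frequent in GC-rich windows, and a match to these letters is a description, not a binding site.

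*Lsm6* (ENSMUSG00000031683, chromosome 8, 78804865 to 78821140, minus strand) encodes a ring subunit shared by the cytoplasmic ring that acts in decay and the nuclear ring that binds U6 RNA. FPKM values were 14.5, 15.5 and 13.4 in Ctrl against 18.1, 19.1 and 17.8 in cKO. The 3 cKO samples lay together above the 3 Ctrl samples. The mean was 14.5 ± 1.02 in Ctrl and 18.3 ± 0.69 in cKO (SD, n = 3), a log2 fold change of 0.32 (SE 0.083, 95% interval 0.12 to 0.52, adjusted p = 0.481, limma with Benjamini-Hochberg). It was the member with the smallest adjusted p, it rested on 912 to 1353 reads a sample, and it was past the unadjusted threshold in 14 of 14 alternative fits. No other annotated gene overlaps its exons.

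*Lsm3* (ENSMUSG00000034192, chromosome 6, 91515928 to 91522625, plus strand) encodes another subunit shared by both rings. FPKM values were 3.75, 3.58 and 2.84 in Ctrl against 2.42, 2.63 and 2.53 in cKO. The cKO samples were close to each other and lay below Ctrl, of which replicate 3 was the nearest. The log2 fold change was -0.31 (SE 0.119, 95% interval -0.60 to -0.02, adjusted p = 0.650, limma with Benjamini-Hochberg), from 117 to 180 reads a sample. It was past the unadjusted threshold in 7 of 14 alternative fits, and in 1 of the 6 that left out a sample, the one without Ctrl replicate 3. An overlapping gene, AC161456.1, covers 6.32% of its exon length and is listed at an FPKM of 0.

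*Lsm5* (ENSMUSG00000091625, chromosome 6, 56701063 to 56704710, minus strand), also a subunit of both rings, had FPKM of 4.05, 9.07 and 4.10 in Ctrl against 3.95, 3.27 and 2.72 in cKO. Ctrl replicate 2 was far above the other 5 samples, and Ctrl replicate 1 exceeded cKO replicate 1 by little. The log2 fold change of -0.57 (SE 0.288) was the lowest among the members, and it was -0.24 without Ctrl replicate 2. The adjusted p was 0.720 (limma, Benjamini-Hochberg). With 39 to 113 reads a sample it was the member with the fewest reads.

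The other 4 ring genes overlapped between the genotypes. *Lsm1*, which defines the cytoplasmic ring, had a mean FPKM of 5.16 ± 0.882 in Ctrl and 4.36 ± 0.613 in cKO, and *Lsm7*, a subunit of both rings, had 9.09 ± 1.41 and 7.60 ± 0.599. *Lsm2* and *Lsm4*, also in both rings, had 2.35 ± 0.875 and 2.41 ± 0.414, and 34.0 ± 3.53 and 35.1 ± 2.78. *Lsm8*, which takes the place of *Lsm1* in the nuclear ring and is not a member, had 5.41 ± 0.563 and 5.26 ± 0.744. The ring as a whole had a median log2 fold change of -0.20, with 3 positive and 4 negative values.

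Since the ring holds 1 copy of each subunit, the ratio of *Lsm6* to other subunits was also read within each sample. These ratios were chosen after the levels had been seen and are given without a test. On the deposited length scale, *Lsm6* to *Lsm3* was 3.88, 4.33 and 4.74 in Ctrl against 7.48, 7.25 and 7.02 in cKO. The mean was 4.31 ± 0.431 against 7.25 ± 0.227 (SD, n = 3), and *Lsm6* to *Lsm5* was 2.86 ± 1.01 and 5.65 ± 0.99. Neither ratio could overlap, since every cKO sample was above every Ctrl sample in *Lsm6* and below in *Lsm3* and *Lsm5*. The lack of overlap therefore adds nothing to the levels. *Lsm6* to *Lsm4*, at 0.429 ± 0.0581 and 0.525 ± 0.0606, overlapped.

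**Figure D3:**
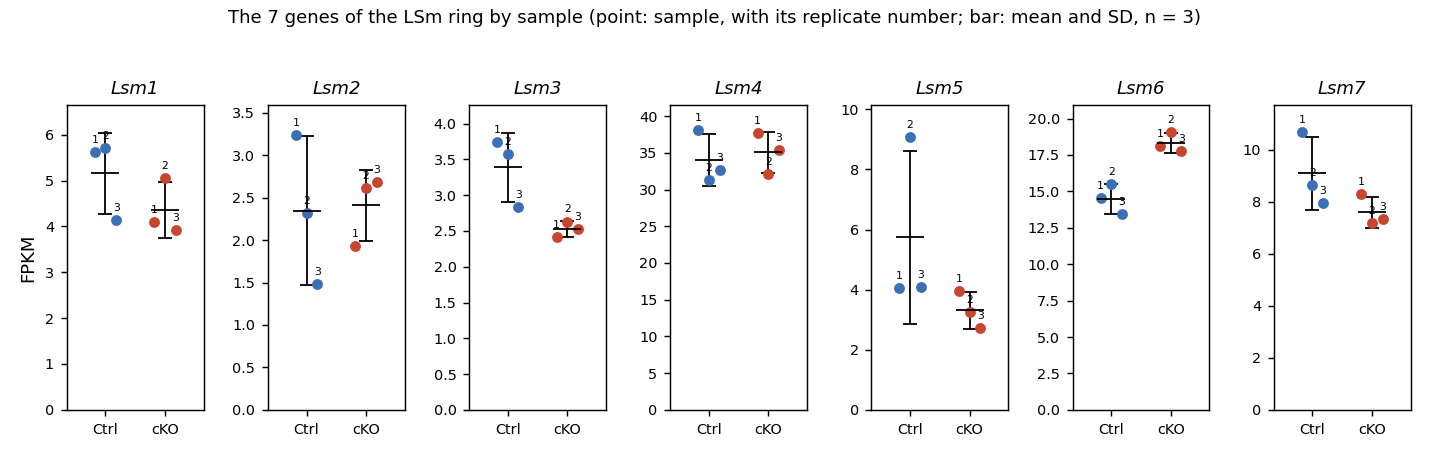
FPKM of the 7 genes of the LSm ring in each Ctrl and cKO sample (points with replicate numbers), with the mean and SD of 3 samples (bars) and an axis from 0 for each gene. *Lsm6* is higher in all 3 cKO samples, *Lsm3* is lower in all 3, and the Ctrl mean of *Lsm5* is raised by replicate 2, at 9.07.

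In the decapping machinery, 0 of 8 genes were past the unadjusted threshold, and the median log2 fold change was 0.02 (range -0.15 to 0.15). *Dcp2*, the enzyme that removes the cap, had a mean FPKM of 2.24 ± 0.31 in Ctrl and 2.30 ± 0.0154 in cKO. Of its cofactors, *Dcp1b* had 2.89, 2.94 and 3.18 in Ctrl against 2.61, 2.64 and 2.71 in cKO. All 3 cKO values were lower, and the log2 fold change was -0.13 (95% interval -0.36 to 0.10, adjusted p = 0.820, limma with Benjamini-Hochberg). Its paralog *Dcp1a* had 3.35 ± 0.331 and 2.92 ± 0.347, with overlap.

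*Edc4*, the scaffold of the decapping complex, had a log2 fold change of 0.00, *Edc3*, another enhancer of decapping, 0.12, and *Patl1*, which links the LSm ring to the decapping complex, -0.09. *Ddx6*, an RNA helicase that represses translation and activates decapping, was among the most abundant members, with FPKM of 31.7, 28.8 and 31.9 in Ctrl against 34.6, 33.5 and 30.8 in cKO. The genotypes overlapped and its log2 fold change was 0.10 (95% interval -0.11 to 0.30). *Dcps*, which hydrolyses the cap left after decay from the tail end, had 13.7 ± 1.61 and 15.4 ± 2.08. Of the *Edc3* exon length, 22.1% is shared with *Clk3* on the opposite strand (FPKM 5.66), and library strand was not stated, so reads of the pair cannot be told apart there.

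Of the exonucleases that digest the body, 0 of 6 were past the unadjusted threshold, and their log2 fold changes ran from 0.00 to 0.14. *Xrn1*, the cytoplasmic nuclease that follows decapping, had FPKM of 2.34, 2.39 and 2.54 in Ctrl against 2.58, 2.63 and 2.78 in cKO. The 3 cKO values lay just above the Ctrl values, with a log2 fold change of 0.10 (95% interval -0.14 to 0.33, adjusted p = 0.850, limma with Benjamini-Hochberg). Its nuclear counterpart *Xrn2*, which acts in transcription termination, had 8.23 ± 1.19 and 8.54 ± 0.72.

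*Dis3l*, the catalytic subunit of the cytoplasmic exosome, had 3.68, 3.84 and 4.11 in Ctrl against 4.35, 4.32 and 4.44 in cKO. Again the genotypes did not overlap, and the log2 fold change was 0.14 (95% interval -0.08 to 0.36, adjusted p = 0.807, limma with Benjamini-Hochberg). *Dis3*, the catalytic subunit of the nuclear exosome, had 1.67 ± 0.201 and 1.84 ± 0.283. *Dis3l2*, which degrades uridylated RNA without the exosome, had 1.604 ± 0.12 and 1.68 ± 0.114, and *Exosc10*, the nuclease of the nucleolar exosome, 11.9 ± 0.991 and 11.9 ± 0.634.

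In the exosome core, a ring with a cap of RNA-binding subunits that threads RNA to the nucleases, 0 of 8 genes were past the unadjusted threshold and none separated the genotypes. The median log2 fold change was -0.08 (range -0.22 to 0.13). *Exosc3*, a cap subunit, had FPKM of 21.8, 19.3 and 11.6 in Ctrl against 14.7, 14.1 and 14.5 in cKO. The cKO samples were nearly equal and lay between Ctrl replicate 3 and the other 2 Ctrl samples. Without Ctrl replicate 3 its log2 fold change moved from -0.22 to -0.48 and passed the unadjusted threshold (adjusted p = 0.381, limma with Benjamini-Hochberg). Without Ctrl replicate 1 it was -0.05.

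The spread within Ctrl was wide in several core genes. *Exosc8*, a ring subunit, had 2.92, 2.23 and 1.54 in Ctrl against 1.88, 2.32 and 1.76 in cKO, and *Exosc7*, another, 3.70, 5.80 and 4.21 and 4.14, 4.28 and 4.17. In both the cKO samples lay inside the Ctrl range. The ring subunits *Exosc4* (9.87 ± 1.96 and 9.85 ± 0.544), *Exosc5* (2.47 ± 0.093 and 2.81 ± 0.382) and *Exosc9* (3.75 ± 0.778 and 3.79 ± 0.698) and the cap subunits *Exosc1* (8.85 ± 1.02 and 8.26 ± 0.68) and *Exosc2* (5.07 ± 0.442 and 4.31 ± 0.641) overlapped too. The remaining ring gene, *Exosc6*, is not a member, and it is listed at an FPKM of 0 in all 6 samples. Exons of *Exosc4* (19.8%), *Exosc2* (12.4%) and *Exosc9* (10.8%) are shared with genes on the opposite strand.

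In nonsense-mediated decay, 1 of 7 genes was past the unadjusted threshold, with lower values in cKO, against 3.07% of all genes tested. With 7 genes, 1 past it is no result about the role. The median log2 fold change was -0.11. *Upf3b* (ENSMUSG00000036572, chromosome X, 37091678 to 37110322, minus strand), which ties the exon junction complex to the UPF proteins, had FPKM of 17.8, 20.5 and 18.8 in Ctrl against 16.7, 16.6 and 16.1 in cKO. The cKO samples lay together just below Ctrl. The log2 fold change was -0.20 (SE 0.081, 95% interval -0.39 to -0.002, adjusted p = 0.670, limma with Benjamini-Hochberg), and it was past the unadjusted threshold in 3 of 14 alternative fits, of which 1 left out a sample, Ctrl replicate 1. Its paralog *Upf3a* had 3.20 ± 0.189 and 2.998 ± 0.182, with overlap.

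*Smg5*, which recruits the decay enzymes to phosphorylated UPF1, had FPKM of 9.46, 10.1 and 10.6 in Ctrl against 8.70, 8.39 and 9.18 in cKO. *Smg6*, the endonuclease that cuts near the premature stop, had 3.95, 3.78 and 4.12 in Ctrl against 4.67, 4.21 and 4.17 in cKO. Both genes separated the genotypes, in opposite directions. The log2 fold change was -0.18 for *Smg5* (95% interval -0.38 to 0.02, adjusted p = 0.700) and 0.11 for *Smg6* (-0.11 to 0.34, adjusted p = 0.820, limma with Benjamini-Hochberg). The ratio of *Smg6* to *Smg5*, chosen after the levels had been seen, was 0.394 ± 0.0222 in Ctrl and 0.497 ± 0.0415 in cKO (SD, n = 3). Since the genes separated the genotypes in opposite directions, their ratio could not overlap and adds nothing to the levels.

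*Upf1*, the helicase at the centre of the pathway, had FPKM of 15.4, 17.5 and 13.8 in Ctrl against 16.1, 12.4 and 10.7 in cKO. The cKO samples were spread widely, and replicate 1 lay among the Ctrl samples. Its log2 fold change was -0.25 and moved to -0.40, past the unadjusted threshold, without cKO replicate 1. *Upf2*, which bridges UPF1 and UPF3, had 6.50 ± 0.37 and 6.88 ± 0.41, and *Smg1*, the kinase of UPF1, 3.80 ± 0.811 and 3.404 ± 0.107.

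Of the 4 genes of the Ski complex and ribosome rescue, 0 were past the unadjusted threshold, and the log2 fold changes ran from 0.01 to 0.24 with a median of 0.12. *Ttc37*, the scaffold of the Ski complex, had FPKM of 3.05, 2.32 and 2.27 in Ctrl against 3.20, 3.35 and 2.96 in cKO. Ctrl replicate 1 lay within the cKO range and the other Ctrl samples below it, and the log2 fold change was 0.24, or 0.34 without Ctrl replicate 1 (adjusted p = 0.355, limma with Benjamini-Hochberg). *Skiv2l*, the helicase of the same complex, had 13.2 ± 0.8 and 13.7 ± 1.26.

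*Hbs1l*, the partner of Pelota, had 6.16 ± 0.233 in Ctrl and 7.55, 6.28 and 7.99 in the cKO samples. Only cKO replicate 2 fell within the Ctrl range, and the log2 fold change was 0.20, or 0.29 without that sample. *Pelo* had 2.44 ± 0.706 and 2.42 ± 0.149, but 46.2% of its exon length is shared with *Gm49395* on the same strand and 29.2% with *Gm10734* on the other, so its counts of 54 to 82 reads are uncertain.

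The CCR4-NOT scaffold genes varied little, with 0 of 3 past the unadjusted threshold and log2 fold changes from -0.10 to 0.04. *Cnot1*, the platform of the complex, had 7.21 ± 0.89 and 7.41 ± 0.0487. *Cnot2* and *Cnot3*, which form a module at its end, had 11.9 ± 0.905 and 11.4 ± 0.557, and 6.25 ± 0.318 and 5.78 ± 0.458.

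Samples of the same genotype also differed by role. The median deviation of the LSm genes from their own means over the 6 samples, in log2(FPKM + 1), was 0.21, 0.06 and -0.07 in Ctrl against -0.08, -0.10 and -0.15 in cKO. For the exosome core it was 0.17, 0.10 and -0.18 in Ctrl against -0.09, -0.01 and -0.05 in cKO, so the Ctrl samples held both extremes. Ctrl replicate 1 had the highest value of the 6 samples in 14 members, and Ctrl replicate 3 the lowest in 14.

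**Figure D4:**
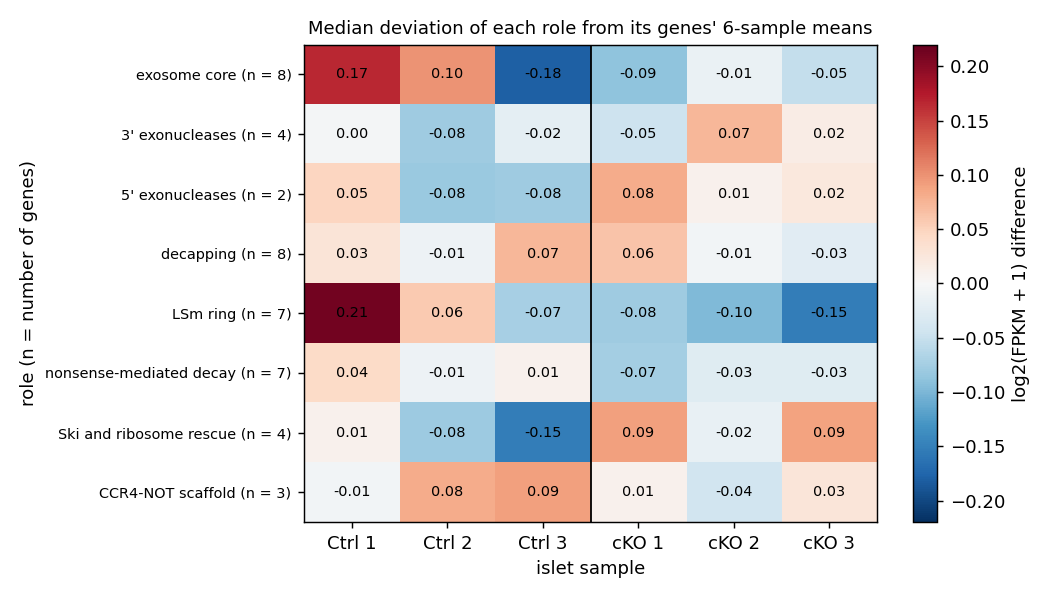
Median deviation of each role's genes from their means over the 6 samples, in log2(FPKM + 1), for each sample (columns, with Ctrl left of the line). The exosome core runs from 0.17 in Ctrl replicate 1 to -0.18 in Ctrl replicate 3, a wider span than among the cKO samples.

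These deviations moved with transcript length. Across the 43 members, Spearman's rho between the deviation and the length of the main coding transcript was -0.30, -0.59 and 0.46 in Ctrl against 0.36, 0.18 and 0.29 in cKO. Short transcripts, which include most of those of the LSm and exosome genes, were thus relatively high in Ctrl replicates 1 and 2 and low in Ctrl replicate 3, with a median deviation of 0.10, 0.08 and -0.11, against -0.08, -0.03 and -0.06 in cKO. Among the LSm genes *Lsm6* had the longest main transcript, at 3792 bases, above the members' median of 2822. *Lsm3* and *Lsm5*, which were lower in cKO, had 743 and 494. The members share the libraries and are not independent, so no p is given. With the deposited gene length, rho in Ctrl replicates 1, 2 and 3 was -0.33, -0.60 and 0.54 for the members and -0.15, -0.23 and 0.32 for 9277 protein-coding genes in the same range of levels. In cKO it was 0.19, 0.17 and 0.33 for the members and 0.16, -0.10 and 0.04 for those genes, so the signs differed in cKO replicate 2. Its part in the differences above was not tested.

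Levels of different genes can be compared only per length, and the length chosen changed the order. For 41 of the 43 members the deposited length equals the summed, merged exons of the gene in GENCODE M21, which can be far longer than the transcript that is made. On that scale the members ran from 1.64 FPKM for *Dis3l2* to 34.6 for *Lsm4*, a ratio of 21.1, with a median of 4.76. Recomputed over the length of the main coding transcript, they ran from 2.29 for *Dcp2* to 42.2 for *Ddx6*, a ratio of 18.4, with a median of 9.85.

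Genes of the same role were often, but not always, closer on the main-transcript scale. The exosome core spanned a ratio of 7.58 on the deposited scale, with *Exosc3* highest, and 3.56 on the main-transcript scale, with *Exosc7* highest, and *Exosc8* was lowest on both. *Xrn2* exceeded *Xrn1* by a ratio of 3.30 on the deposited scale and of 1.13 on the other. The 3 CCR4-NOT genes spanned 1.94 and 1.13, and the LSm ring 14.5 and 7.02. The decapping genes spanned 14.0 and 18.4, with *Dcp2* lowest and *Ddx6* highest on both. The genes of the Ski complex and ribosome rescue also spanned more on the main-transcript scale, 5.54 and 6.97. Which transcripts were made was not measured, so neither scale is the true one. On the main-transcript scale *Lsm4*, *Upf3b*, *Lsm7* and *Exosc7* followed *Ddx6*, at 38.8 ± 3.26, 30.3 ± 2.88, 28.6 ± 4.34 and 25.02 ± 4.15 (SD over 6 samples), and neighbours in that order overlapped within 1 SD except for *Lsm4* and *Upf3b*.

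**Figure D5:**
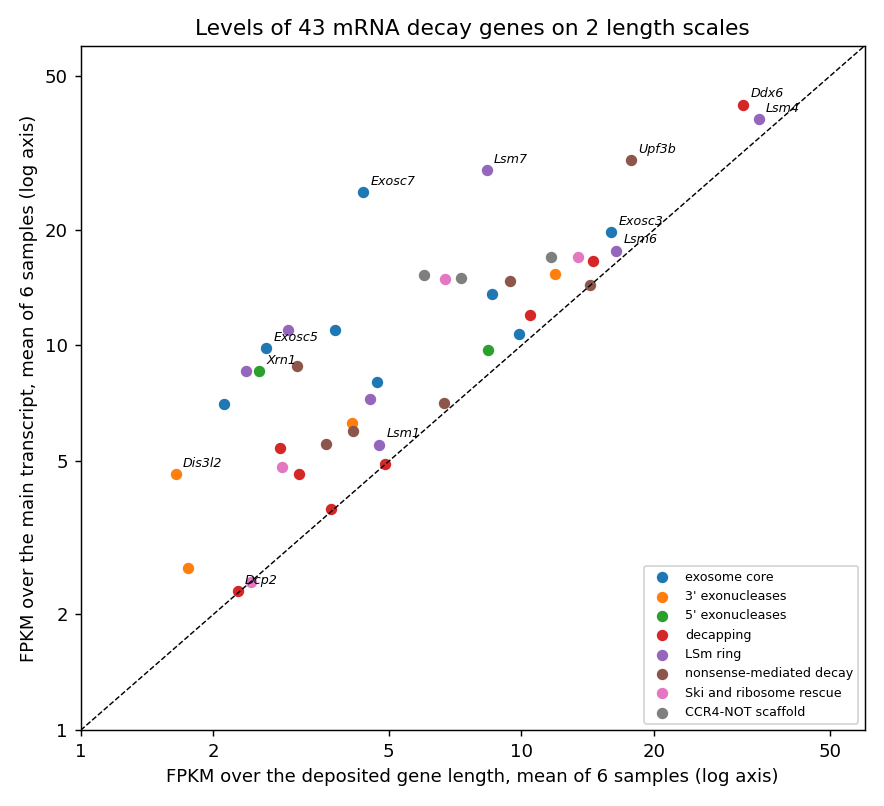
Mean FPKM of each member over 6 samples on the deposited gene length (x, log axis) against the length of its main coding transcript (y, log axis), coloured by role, with the line of equality dashed. Members far above the line, such as *Exosc7* and *Lsm7*, have deposited lengths much longer than their main transcript.

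The rest of the pathway was read from a second list of 61 genes, of which 59 could be tested and 2, *Exosc6* and *Patl2*, were listed at 0 in every sample. Past the unadjusted threshold were 0 with higher values in cKO, against 4.33% of all genes tested, and 3 (5.08%) with lower values, against 3.07%, and the median log2 fold change was -0.05. *C1d*, a cofactor of the nuclear exosome, was the 1 gene (1.69%) with every cKO sample above every Ctrl sample, against 7.11% of all genes tested, and 7 genes (11.9%) lay wholly below, against 6.03%. *Btg1*, which stimulates deadenylation by CCR4-NOT, had a mean FPKM of 37.4 ± 4.68 in Ctrl and 28.8 ± 1.30 in cKO (SD, n = 3), a log2 fold change of -0.36 (adjusted p = 0.545, limma with Benjamini-Hochberg). It was past the unadjusted threshold in 14 of 14 alternative fits.

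*Smg9*, which regulates the kinase SMG1, had 6.09 ± 0.437 and 4.77 ± 0.45, a log2 fold change of -0.30, and *Nop53*, an adaptor that brings the nuclear exosome to pre-ribosomes, had 24.2 ± 1.43 and 20.5 ± 0.525, a log2 fold change of -0.23. Both were past it in 8 of 14. Of 8 transcripts known as substrates of nonsense-mediated decay, such as *Gas5*, *Atf4* and *Gadd45b*, 0 were past the unadjusted threshold, and 3 had positive and 5 negative log2 fold changes, with a median of -0.08. Changes smaller than the intervals of these genes were not detectable with 3 samples a genotype.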

How the data were processed

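Total RNA of islets from 3 Ctrl and 3 cKO samples was extracted with TRIzol and made into libraries with a SMARTER mRNA kit, per the labels. The authors deposited FPKM per gene and sample, with replicates kept apart and coordinates of GRCm38 (mm10, per the submitters' processing notes), together with the gene length, which is the other deposited quantity used, in bases. They compared genotypes with a count model and reported genes higher and lower in cKO islets, with a decrease of some also measured by qRT-PCR. The threshold they used was not stated. In the fit used here no gene passed the adjustment, and 919 genes were higher and 651 lower at an unadjusted p under 0.05 (limma). Without their threshold, neither count can be set against their list. Aligner, counting method, annotation and library strand were not given in the sources used here.

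Samples were grouped by the labels. Genotypes were compared with limma 3.58.1 in R 4.3.3 on log2(FPKM + 1), with a linear model over genes whose mean FPKM reached 0.1, empirical Bayes with a trend, two-sided, and Benjamini-Hochberg adjustment over all genes tested. No set test was run. FPKM times length came out as whole reads for 100% of values (tolerance 0.01 read), so the reads and the divisor behind each FPKM could be read back. That divisor differed from the reads on genes by a scaling that the sources do not state. The reads gave the depth and 1 alternative fit with voom. With these divisors 1 read on 1 kilobase was an FPKM of 0.0553 to 0.0636. Another 13 alternatives changed the pseudocount, filter, scaling, trend, block or samples.

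The members and lists were chosen with earlier results of these data known. Full statistics were given for members past an unadjusted p of 0.05 or without overlap of the genotypes, and for genes of the second list past that p. *C1d* and the partner ratios were chosen after their values were seen. The main transcript of a gene is the one with the longest coding sequence in GENCODE M21, and promoter windows are from RefSeq. Figures were drawn with matplotlib 3.10.9 in Python 3.11.15. The code was tested on simulated data.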

Additional observations from a re-analysis of the deposited data

How the results depend on the processing

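Across 14 alternative fits, 30 of 43 members kept the sign of their log2 fold change, and the other 13, none with a size above 0.10, had another sign in at least 1. The number of members past the unadjusted threshold with higher values in cKO (1) was 1 to 2 when each sample was left out in turn, the highest without Ctrl replicate 1 (with *Ttc37*) or cKO replicate 2 (with *Hbs1l*). The number with lower values (2) was 1 with a pseudocount of 0.1, a mean FPKM of at least 1, equal sums without *Ins1* and *Ins2* or no trend, 0 with voom, and 0 to 2 when each sample was left out. It was 0 without Ctrl replicate 2, cKO replicate 2 or cKO replicate 3. Of the second list (3), 1 passed with equal sums without *Ins1* and *Ins2*, and 1 to 4 when each sample was left out, the lowest without Ctrl replicate 3. Of all genes tested, 3.82% were higher and 2.37% lower with those equal sums, and 3.66% and 3.98% without Ctrl replicate 3. The cause of these moves was not tested. The *Parn* log2 fold change was -0.54 to -0.37 with each sample left out. Without Ctrl replicate 1, 14 genes of all tested, and 0 members, had an adjusted p under 0.05 (limma, Benjamini-Hochberg).

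With the replicate number as a block, 1 member was higher and 0 were lower, against 3.47% and 2.54% of all genes tested. In that fit 1275 in place of 1570 genes were past the unadjusted threshold. Same-numbered Ctrl and cKO samples deviated from their group means with r of -0.17, -0.02 and -0.07 across genes, and differently numbered ones with r of -0.08 to 0.13. The sources do not say whether samples were paired. These values cannot settle it, because the deviations within a group sum to 0 and tie the r values together. *Lsm5*, with the fewest reads (39 to 113), had the widest interval, and 3 samples a genotype limit every p.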
